A study of Homo sapiens with 12 samples.

Results

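Immediate early and short-lived regulator mRNAs were followed by name in cells that over-express a transfer RNA. The set was a list of 47 gene symbols: AP-1 and EGR factors, MAP kinase phosphatases, ZFP36 proteins and other labile regulators. Its members were those found under the same symbol in the authors' deposited table of stability, 46 of 47 among 34602 gene symbols. CSRNP1, a nuclear protein induced by AXIN1, was the member missing. The authors' deposited table lists AXUD1, an older symbol of CSRNP1, which is given below and kept out of all counts of scores. MDA-MB-231, a mesenchymal, triple-negative human breast cancer line, was measured on Illumina expression BeadChips. The tRNA-Glu line stably over-expressed the locus chr1.trna5 (Glu-TTC) and the tRNA-Arg line chr16.trna1 (Arg-CCG), and a mock line served as control. Every line has arrays of α-amanitin at 10 µg/mL at 0 and 9 h, with 2 arrays for each line and time, 12 in all. Whether replicates were separate cultures, or a line a single clone, is not given in the sources used here.

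Immediate early genes are switched on within minutes of a growth factor, stress or adhesion signal, through the ERK, JNK and p38 MAP kinases and factors such as SRF and CREB that are already in the cell. Many of their mRNAs carry AU-rich elements, which ZFP36 proteins bind to recruit deadenylases, so the message disappears again soon after the signal. Several of the encoded proteins (DUSP, SPRY, ZFP36) act back on the same kinases or mRNAs. α-Amanitin blocks RNA polymerase II, so an mRNA level at 9 h relative to 0 h is read as decay. The median processed intensity ran only from 56.2 to 56.3 over the 12 arrays, so a change on them is relative to the other probes. Whether a member's mRNA was still above array background at 9 h was not tested. The authors' deposited table gives 1 score per gene and line, headed as stability of the tRNA line against control. A positive score is read here as more stable in the tRNA line. Neither a formula nor a log base is stated for it, and it has no replicate values and no p-values. No score was therefore tested, and a score is given with its percentile among all 34602 genes of the authors' deposited table.

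The promoters of the listed genes, CSRNP1 included, were examined for the sites that immediate early transcription is known to use. RefSeq windows of 300 bases around the start sites (build GRCh38.p14) were found for 38 of the 47 listed genes, 50 windows in all. A CArG box, the binding site of SRF (CC and GG around a run of A and T), was in the windows of 3 of 38 genes (7.89%), beside 1.60% of 27305 genes with a window. The stretches of EGR1, EGR2 and RND3 that hold it are shown with the CArG boxes in capitals, 60 bases each, written on the gene's own strand and ending upstream of the start site. They lie at chr5:138465359-138465418 (plus strand), chr10:62816393-62816452 (minus strand) and chr2:150487723-150487782 (minus strand).
EGR1: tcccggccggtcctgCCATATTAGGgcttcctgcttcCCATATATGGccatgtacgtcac
EGR2: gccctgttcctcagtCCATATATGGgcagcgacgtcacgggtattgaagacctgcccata
RND3: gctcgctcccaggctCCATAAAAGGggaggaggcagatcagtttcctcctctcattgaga

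EGR1 holds 2 boxes. The authors' deposited table of stability gives each gene a score for each tRNA line. These 3 genes had tRNA-Glu scores from -0.0666 to 0.0610 per the authors' deposited table, between the 5% limits. The full cyclic AMP response element, TGACGTCA, bound by CREB and ATF factors, was in the windows of 4 of 38 genes (10.5%) and of 2.25% of all genes. Its 4 carriers were DUSP1, JUND, MAFF and ZFP36L1, and the element is in capitals in stretches at chr5:172771276-172771335 (minus strand), chr19:18281778-18281837 (minus strand), chr22:38201925-38201984 (plus strand) and chr14:68793424-68793483 (minus strand).
DUSP1: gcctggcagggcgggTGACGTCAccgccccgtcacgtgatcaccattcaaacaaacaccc
JUND: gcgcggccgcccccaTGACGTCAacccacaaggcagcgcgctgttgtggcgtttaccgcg
MAFF: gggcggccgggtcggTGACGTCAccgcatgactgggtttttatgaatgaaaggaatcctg
ZFP36L1: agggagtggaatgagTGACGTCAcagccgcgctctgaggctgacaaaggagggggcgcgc

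The tRNA-Glu scores of these 4 ran from -0.144 for JUND to 0.214 for DUSP1 by the authors' deposited table. Among genes with a window, the 2 highest and 2 lowest for tRNA-Glu are shown for comparison. JUN and PLK2, the highest, hold the shorter core TGACG of that response element (capitals), at chr1:58784126-58784185 (minus strand) and chr5:58460119-58460178 (minus strand). In BTG1, whose window holds this core on the other strand, the capitals mark the TATA box TATAAA, at chr12:92145847-92145906 (minus strand), and PIM1, the lowest, had none of the motifs searched in its window, whose last 60 bases before the start are at chr6:37170092-37170151 (plus strand).
JUN: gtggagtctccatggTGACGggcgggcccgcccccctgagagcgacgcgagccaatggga
PLK2: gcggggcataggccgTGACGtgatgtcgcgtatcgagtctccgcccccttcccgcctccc
BTG1: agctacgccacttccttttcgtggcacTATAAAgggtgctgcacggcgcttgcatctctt
PIM1: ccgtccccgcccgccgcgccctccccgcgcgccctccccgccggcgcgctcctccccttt

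TGACG, part of the full element, was in the windows of 22 of 38 genes (57.9%), beside 28.4% of all genes. Its 21 carriers with a score had a tRNA-Glu median of 0.0205 and the 16 other genes one of -0.108 according to the authors' deposited table. The scores ran from -0.352 to 0.528 with it and from -0.643 to 0.288 without it per the authors' deposited table, so the groups overlapped. For tRNA-Arg the medians were -0.0170 with it and -0.0129 without it by the authors' deposited table. The EGR site GCGNGGGCG was in 13 of 38 genes (34.2%) and in 11.2% of all genes, and TATAAA in 10 (26.3%) and 14.0%. The AP-1 site TGANTCA was in 1 gene, FOSL2 (2.63%), beside 9.37% of all genes, and the ETS letters CCGGAA were in 6 (15.8%) beside 20.1%. By the authors' deposited table, tRNA-Glu medians with and without the ETS letters were 0.113 and -0.0538, and for the EGR site -0.0666 and -0.0434. For TATAAA they were -0.0478 and -0.0448, for the full element -0.0108 and -0.0448, and for the CArG box 0.0205 and -0.0493. The tRNA-Glu scores of the 6 genes with the ETS letters ran from -0.188 to 0.212. Those of the 31 genes without the letters ran from -0.643 to 0.528, so the groups overlapped. The tRNA-Arg medians with and without the ETS letters were 0.00884 and -0.0170 by the authors' deposited table. No link of a motif to a score was tested. Both strands were searched. The median GC content was 64.8% over the listed genes' windows and 58.7% over all windows, and its part in these shares was not tested. A match is a description of letters in this window only. RND3 has 2 windows that overlap and hold the same box.

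**Figure D1:**
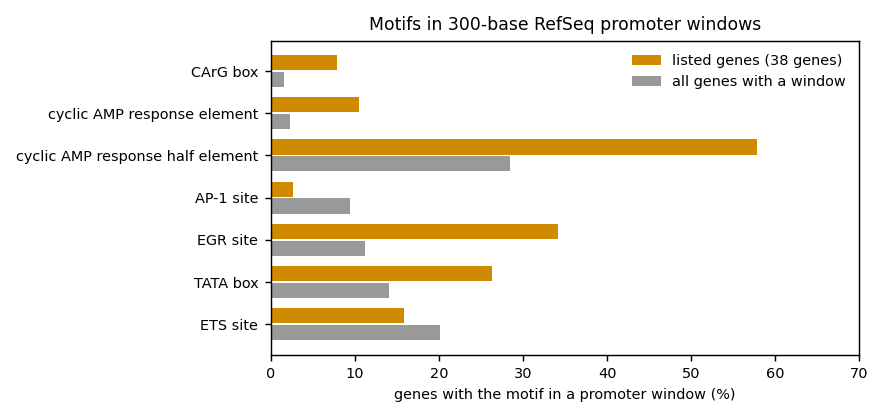
Percent of genes with each motif in at least 1 of their 300-base RefSeq promoter windows, for 38 of the 47 listed genes, CSRNP1 included (upper bars) and all 27305 genes with a window (lower bars). The bars of the listed genes are longer for the CArG box, both forms of the cyclic AMP response element, the EGR site and the TATA box, and shorter for the AP-1 and ETS sites.

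The spread of the measurement was examined in 2 ways. The RNA is of whole cultures, so fewer cells with a message and less message per cell cannot be told apart. The authors' deposited table holds 300 pairs of a current symbol and an older symbol that RefSeq assigns to that gene alone, from 295 genes. The median absolute difference between their 2 scores was 0.0818 for tRNA-Glu and 0.0681 for tRNA-Arg according to the authors' deposited table. The difference exceeded 0.429 for tRNA-Glu and 0.244 for tRNA-Arg in 5% of these pairs of the authors' deposited table. Among pairs whose current symbol was in the highest or lowest 5%, and so chosen for an extreme score, the median absolute difference was 0.325 for tRNA-Glu and 0.199 for tRNA-Arg per the authors' deposited table. Of 44 pairs whose current symbol was in the highest or lowest 5% for tRNA-Glu, the older symbol had the same sign in 27 and lay in the same 5% in 7, by the authors' deposited table. For tRNA-Arg it was 19 and 4 of 42 according to the authors' deposited table. Pearson's r between the 2 scores across the 300 pairs was 0.261 for tRNA-Glu and 0.121 for tRNA-Arg per the authors' deposited table, a description over pairs that share arrays. The 2 scores of a gene may come from probes to different parts or forms of a transcript. Some older symbols, such as XAGE1C, XAGE1D and XAGE1E beside XAGE1B, may have named separate copies. The 2 scores of a pair therefore need not repeat the same measurement, and the pairs were not matched to the members. SGK1, a serum- and glucocorticoid-induced kinase, is the only member with both listings: for tRNA-Glu it had -0.188, and its older symbol SGK -0.175, by the authors' deposited table. For tRNA-Arg the values were -0.0834 and 0.0268 according to the authors' deposited table, of opposite sign.

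**Figure D2:**
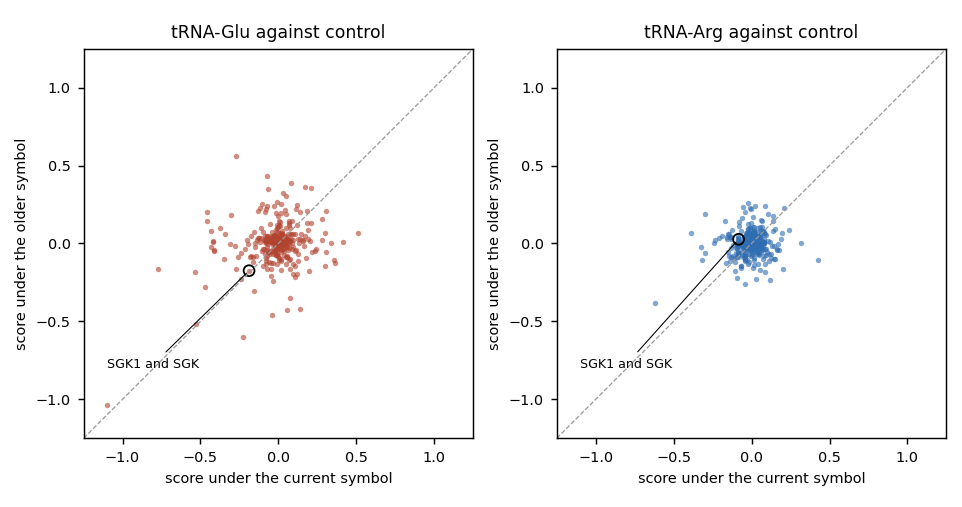
Stability scores of 300 pairs of listings of a gene under a current symbol (horizontal axis) and an older symbol (vertical axis), for tRNA-Glu (left) and tRNA-Arg (right), on the unstated scale of the authors' deposited table. Each point is a pair of symbols and the dashed line marks equal scores; of 44 pairs extreme for tRNA-Glu under the current symbol 7 are in the same 5% under the older one, and SGK1, the member with both listings, is ringed.

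On the arrays the probes carry no gene names in the sources used here, so members could not be read from them and the cell line's markers were not checked. Over all 47231 probes of the authors' processed intensities, the median SD between replicate arrays was 0.14 on the log2 scale. That gives a standard error of 0.19 for a stability difference, the 9 h minus 0 h change in a tRNA line minus that in mock cells. These differences had an SD of 0.27 for tRNA-Glu and 0.21 for tRNA-Arg over all probes. The array of tRNA-Glu 0 h replicate 1 stood apart in correlations over the probes brighter than the median. Its mean correlation with the other 0 h arrays was 0.990, against 0.993 to 0.995 for those others. Without it the SD of the tRNA-Glu differences over probes was 0.26, and without tRNA-Glu 0 h replicate 2 it was 0.33. The authors' deposited table cannot be recomputed without one array, so the part of that array in the tRNA-Glu scores was not tested.

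The members had typically larger scores in size than the genes of the whole table, in both directions. The median size of a score, sign ignored, was 0.170 over the 46 members and 0.0506 over all genes for tRNA-Glu per the authors' deposited table. For tRNA-Arg it was 0.0801 over the members and 0.0432 over all genes by the authors' deposited table. Larger sizes were not particular to the members. Of the 3 other lists below, the AU-rich binding and decay list had 0.166 for tRNA-Glu and 0.0725 for tRNA-Arg by the authors' deposited table. The upstream pathway list had 0.110 and 0.0514, and the long-lived reference list 0.0818 and 0.0668. Genes under a current symbol without a placeholder name had 0.0560 and 0.0449. For tRNA-Glu, 13 of 46 members were in the lowest 5% of scores (below -0.192) and 6 in the highest 5% (above 0.203) according to the authors' deposited table, each a group that holds 5.00% of all genes. In the tRNA-Arg line 9 were in the lowest 5% (below -0.127) and 5 in the highest (above 0.132) per the authors' deposited table, again against 5.00% of all genes each. The signed median of the members was -0.0493 for tRNA-Glu and -0.00109 for tRNA-Arg, beside 0.00489 and 0.00166 over all genes, by the authors' deposited table. Scores above 0 were held by 20 of 46 members for tRNA-Glu, where 52.8% of all genes were above 0, and by 22 of 46 for tRNA-Arg, where 51.0% were, according to the authors' deposited table.

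The counts at the extremes depended on which genes set the limits. With limits from the 17059 genes under a current symbol without a placeholder name, 7 members were in the lowest 5% (below -0.246) and 3 in the highest (above 0.216) for tRNA-Glu per the authors' deposited table. The tRNA-Arg counts were 8 and 5 under those limits by the authors' deposited table. The authors' deposited table holds no expression level, and its part in these counts was not tested. On the arrays the SD of the tRNA-Glu stability differences was 0.31 over the probes brighter than the median and 0.23 over the dimmer ones. For tRNA-Arg the values were 0.20 and 0.22.

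**Figure D3:**
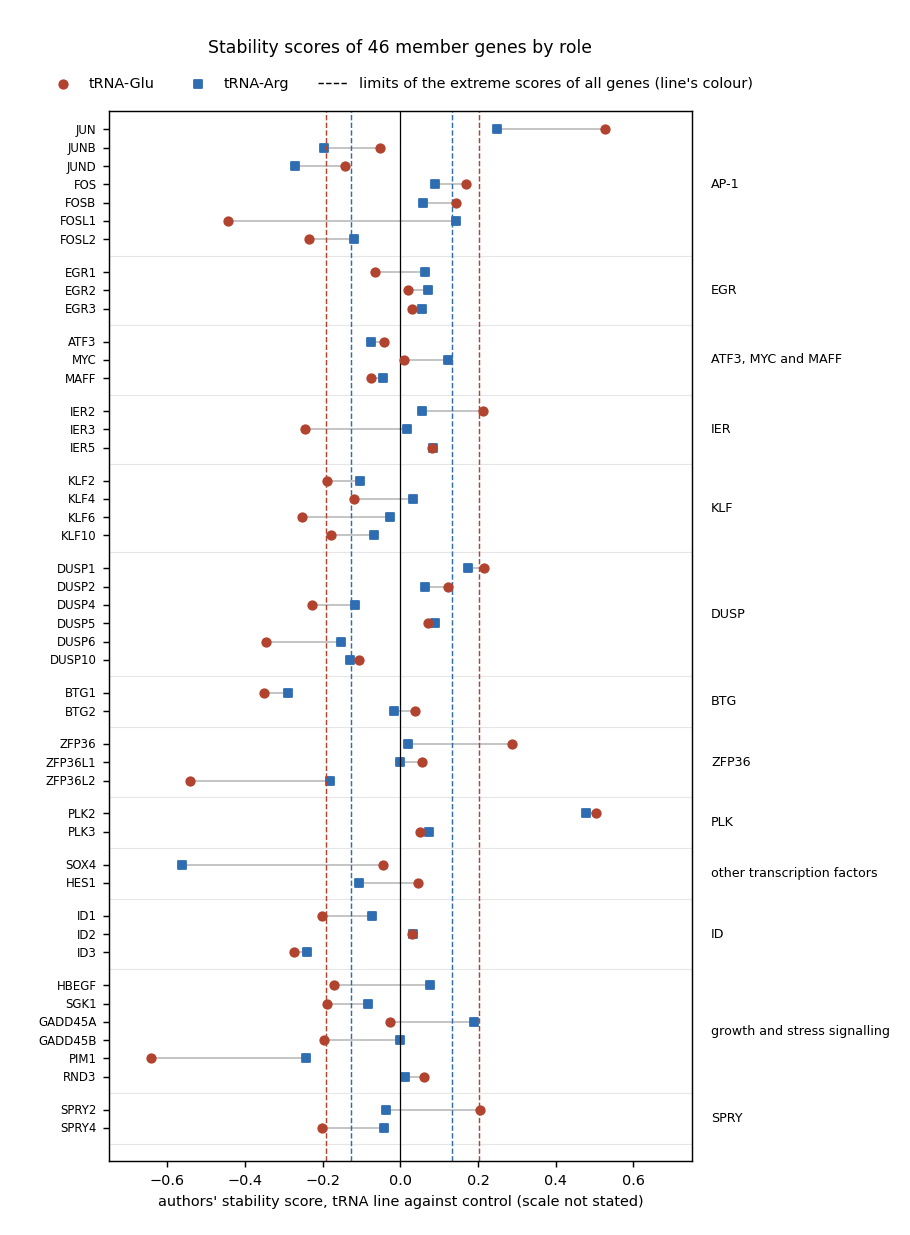
Stability scores of the 46 members (rows, grouped by role) in the tRNA-Glu line (circles) and the tRNA-Arg line (squares) against control, on the unstated scale of the authors' deposited table; dashed lines mark the limits of the lowest and highest 5% of all 34602 genes in each line. PLK2, JUN and DUSP1 lie beyond the upper limits and PIM1, ZFP36L2, BTG1, ID3 and DUSP6 beyond the lower limits in both lines.

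The AP-1 family, dimeric bZIP factors of JUN and FOS proteins, held members at both ends. JUN, the central AP-1 subunit, had the highest tRNA-Glu score of all members, 0.528 (percentile 99.6), and 0.248 for tRNA-Arg (percentile 99.3) according to the authors' deposited table. FOS, its classical partner, had 0.170 and 0.0883 per the authors' deposited table, and FOSB had 0.144 and 0.0592 by the authors' deposited table. These 3 scored above 0 in both lines, as did 12554 of all 34602 genes per the authors' deposited table. JUNB and JUND, which share the JUN DNA-binding domain and can restrain JUN, lay below 0 in both, as did 11227 of all genes. JUNB had -0.0538 for tRNA-Glu and -0.197 for tRNA-Arg (percentile 1.74) according to the authors' deposited table. JUND had -0.144 and -0.272 (percentile 0.640 for tRNA-Arg) per the authors' deposited table. FOSL1, the FOS-related subunit abundant in invasive breast cancer lines, gave the widest gap between the lines on the negative side. Its score was -0.445 for tRNA-Glu (percentile 0.941) and 0.143 for tRNA-Arg (percentile 95.9) by the authors' deposited table, a difference of -0.588. FOSL2 had -0.235 and -0.119 according to the authors' deposited table.

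The EGR zinc-finger factors, targets of SRF and ELK1, lay between the 5% limits in both lines. EGR1 had -0.0666 for tRNA-Glu and 0.0623 for tRNA-Arg per the authors' deposited table. EGR2 had 0.0205 and 0.0704, and EGR3 0.0311 and 0.0550, by the authors' deposited table. All 3 were above the upper quartile of all genes for tRNA-Arg, 0.0450, according to the authors' deposited table. The stress-induced repressor ATF3 had -0.0419 and -0.0759 per the authors' deposited table. MYC, the growth-promoting bHLH factor, had 0.0100 for tRNA-Glu and 0.122 for tRNA-Arg (percentile 94.0) by the authors' deposited table. The small MAF protein MAFF had -0.0768 and -0.0446 according to the authors' deposited table. EGR4 and the EGR co-repressors NAB1 and NAB2 were also between the limits, with tRNA-Glu scores of 0.0669, -0.0804 and 0.0550 per the authors' deposited table.

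The 4 Krüppel-like factors among the members, zinc-finger regulators of growth and differentiation, were all below 0 in the tRNA-Glu line. KLF6, a candidate tumour suppressor, had -0.254 (percentile 3.18) for tRNA-Glu and -0.0256 for tRNA-Arg by the authors' deposited table. KLF2 had -0.188 and -0.105, KLF10, induced by TGF-β, had -0.178 and -0.0682, and KLF4 had -0.120 and 0.0326 according to the authors' deposited table. Only KLF6 passed the lower 5% limit for tRNA-Glu, and none did for tRNA-Arg. The other 13 KLF genes of the authors' deposited table, a family drawn up after the members' values were seen, had a tRNA-Glu median of -0.00231. Of these 13, 6 (46.2%) were above 0, beside 52.8% of all genes. Among them KLF13 had -0.247 and KLF15 0.160 for tRNA-Glu, and KLF9 had -0.261 and KLF15 0.115 for tRNA-Arg, per the authors' deposited table. The ID proteins, which bind bHLH factors and keep them off DNA, split as ID3 and ID1 below and ID2 near 0. ID3 had -0.273 and -0.242 by the authors' deposited table, in the lowest 5% of both lines, ID1 had -0.202 and -0.0740, and ID2 had 0.0294 and 0.0333 according to the authors' deposited table. The fourth of them, ID4, had -0.0723 and -0.0616 per the authors' deposited table.

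SOX4, an HMG-box factor of mesenchymal transition, gave the lowest tRNA-Arg score of all members and the widest gap between the lines on the positive side. It had -0.561 for tRNA-Arg (percentile 0.0303) and -0.0448 for tRNA-Glu (percentile 25.3) by the authors' deposited table, a difference of 0.516. HES1, the Notch-induced repressor, had 0.0456 for tRNA-Glu and -0.106 for tRNA-Arg according to the authors' deposited table. Of the IER genes, IER2 had 0.212 (percentile 95.5) and 0.0548, and IER5 had 0.0820 and 0.0846, per the authors' deposited table. IER3, a survival factor that sustains ERK activity, lay on the other side with -0.246 (percentile 3.40) for tRNA-Glu and 0.0178 for tRNA-Arg by the authors' deposited table. IER5L, which is no member, had -0.412 and -0.296 according to the authors' deposited table. AXUD1, the older symbol of CSRNP1, had 0.235 for tRNA-Glu and 0.195 for tRNA-Arg (percentiles 96.2 and 98.2) per the authors' deposited table.

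The dual-specificity phosphatases that inactivate MAP kinases separated by gene. DUSP1, a nuclear phosphatase of p38 and JNK, was in the highest 5% of both lines, with 0.214 for tRNA-Glu and 0.174 for tRNA-Arg by the authors' deposited table. DUSP2 had 0.123 and 0.0635, and DUSP5, a nuclear phosphatase of ERK, 0.0723 and 0.0894, according to the authors' deposited table. DUSP6, the cytoplasmic ERK phosphatase, was in the lowest 5% of both lines, with -0.347 and -0.153 per the authors' deposited table. DUSP4 had -0.227 for tRNA-Glu (percentile 3.92) and -0.116 for tRNA-Arg by the authors' deposited table. DUSP10, which acts on JNK and p38, had -0.106 and -0.130 according to the authors' deposited table. Among the 18 DUSP genes that are no members, 11 were above 0 for tRNA-Glu with a median of 0.0303 per the authors' deposited table. That is 61.1%, beside 52.8% of all genes. DUSP7, a cytoplasmic ERK phosphatase like DUSP6, had -0.202 and -0.117, whereas the related DUSP9 had 0.0499 and -0.0206, by the authors' deposited table. DUSP3 had 0.356 and 0.249 and DUSP14 0.246 and 0.323 according to the authors' deposited table, above any DUSP member.

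The Sprouty proteins, which restrain RAS to ERK signalling downstream of receptor kinases, lay on opposite sides of 0 for tRNA-Glu. SPRY2 had 0.204, just beyond the upper 5% limit, and SPRY4 -0.203, just beyond the lower one, per the authors' deposited table. For tRNA-Arg both lay close to 0, at -0.0371 and -0.0432 by the authors' deposited table. SPRY1 had -0.219 and -0.130, and the related SPRED1 -0.204 and -0.409, according to the authors' deposited table. SPRED2 had 0.110 and 0.0397 per the authors' deposited table. Of the 5 SPRY and SPRED genes that are no members, 3 were above 0 for tRNA-Glu, beside 52.8% of all genes.

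The ZFP36 proteins, which bind AU-rich elements and hasten decay of their targets, spread widely for tRNA-Glu. ZFP36 (tristetraprolin) had 0.288 (percentile 97.6), ZFP36L1 0.0552 and ZFP36L2 -0.543 (percentile 0.504) by the authors' deposited table. For tRNA-Arg the same genes had 0.0196, -0.00198 and -0.181 according to the authors' deposited table, with ZFP36L2 alone in the lowest 5%. BTG1 and BTG2 are antiproliferative proteins that bring the CCR4-NOT deadenylase to mRNAs. BTG1 was in the lowest 5% of both lines at -0.352 and -0.290, and BTG2 was near 0 at 0.0386 and -0.0170, per the authors' deposited table. TOB1, of the same family, had -0.458 and -0.0183 by the authors' deposited table. BTG3, BTG4 and TOB2 were above 0 for tRNA-Glu, at 0.0504, 0.137 and 0.119 according to the authors' deposited table. For tRNA-Arg BTG3 had -0.179 and TOB2 -0.143, both in the lowest 5%, and BTG4 had 0.121, per the authors' deposited table.

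PLK2, a stress-induced polo-like kinase of centriole duplication, was the one member with a score near 0.5 in both lines. It had 0.503 for tRNA-Glu (percentile 99.5) and 0.477 for tRNA-Arg (percentile 99.9) per the authors' deposited table, and was the highest member for tRNA-Arg. PLK3 had 0.0509 and 0.0729 by the authors' deposited table. The mitotic kinase PLK1, no immediate early gene, had 0.519 and 0.248, and PLK4 had 0.0229 and -0.0760, according to the authors' deposited table. PIM1, a serine kinase that promotes survival and whose mRNA carries AU-rich elements, was at the other end. Its tRNA-Glu score of -0.643 (percentile 0.270) was the lowest of all members, and its tRNA-Arg score was -0.243 (percentile 0.944), per the authors' deposited table. PIM2 had -0.194 and 0.00259, and PIM3 -0.0928 and -0.0288, by the authors' deposited table.

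Of the remaining growth and stress genes, GADD45A and GADD45B, sensors of DNA damage and stress that bind p38 and JNK regulators, differed between the lines. GADD45A had -0.0270 for tRNA-Glu and 0.190 for tRNA-Arg (percentile 98.1) according to the authors' deposited table. GADD45B had -0.196 (percentile 4.86) and -0.000190 per the authors' deposited table. HBEGF, a membrane-bound ligand of the EGF receptor, had -0.171 and 0.0768 by the authors' deposited table. RND3, which loosens actin stress fibres, had 0.0610 and 0.0124 according to the authors' deposited table.

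Both lines are scored against the same mock arrays, so a deviation of those arrays enters both scores of a gene. Set side by side, the tRNA-Glu score was above the tRNA-Arg score in 18 of 46 members, and in 51.5% of all genes, per the authors' deposited table. The difference, tRNA-Glu minus tRNA-Arg, was -0.400 for PIM1, -0.362 for ZFP36L2 and -0.263 for IER3 by the authors' deposited table, beside that of FOSL1 above. Toward tRNA-Glu it was 0.280 for JUN, 0.268 for ZFP36 and 0.241 for SPRY2 according to the authors' deposited table, beside that of SOX4 above. For PLK2 and ID3, extreme in both lines, it was 0.0261 and -0.0318 per the authors' deposited table. The SD of the scores over all genes was 1.59 times larger for tRNA-Glu than for tRNA-Arg by the authors' deposited table. The scale of the scores is unstated, and whether equal scores mean equal stability differences in both lines was not tested.

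**Figure D4:**
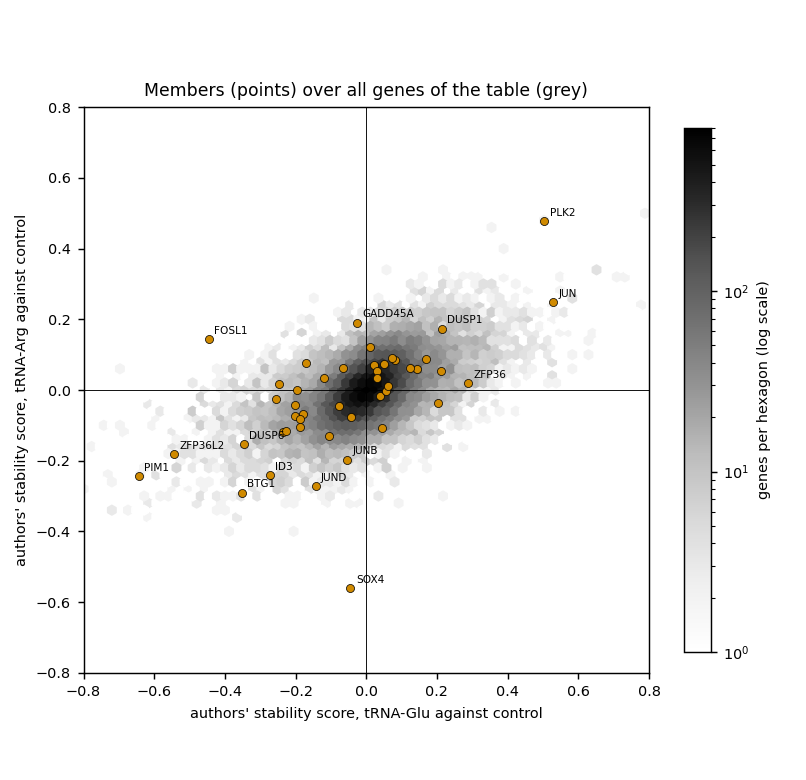
Score of each of the 46 members (points) for tRNA-Glu (horizontal axis) and tRNA-Arg (vertical axis) against control, over the density of all 34602 genes (grey hexagons, log colour scale), on the unstated scale of the authors' deposited table. PLK2 at 0.503 and 0.477, SOX4 at -0.0448 and -0.561 and FOSL1 at -0.445 and 0.143 lie at the edge of the cloud; both axes share the mock arrays.

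Genes of the pathway upstream of the members, from receptors to SRF, were read from a separate list of 31. For tRNA-Glu 6 were in the lowest 5% and 0 in the highest, with a median of -0.0510, according to the authors' deposited table. Scores above 0 were held by 11 (35.5%), beside 52.8% of all genes. The lowest were NRAS, a RAS GTPase, at -0.532 and SRF, the factor that binds the serum response element, at -0.411 per the authors' deposited table. MAP2K1, the kinase that activates ERK, had -0.380 for tRNA-Glu and -0.221 for tRNA-Arg by the authors' deposited table. For tRNA-Arg 3 were in the lowest 5% and 1 in the highest according to the authors' deposited table, the latter being ELK3, a partner of SRF, at 0.255.

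Of 22 genes for AU-rich element binding and mRNA decay, 7 were in the lowest 5% and 0 in the highest for tRNA-Glu, with a median of -0.106, per the authors' deposited table. HNRNPA1 had -0.487 and the helicase UPF1, of nonsense-mediated decay, -0.344 for tRNA-Glu by the authors' deposited table. For tRNA-Arg 3 were in the lowest and 1 in the highest 5%, with a median of -0.0148, according to the authors' deposited table. RC3H2, a stem-loop binding protein, had -0.252 and the decapping cofactor DCP1A 0.171 for tRNA-Arg per the authors' deposited table.

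A list of 21 reference mRNAs that are usually long-lived had 3 in the lowest and 1 in the highest 5% for tRNA-Glu, with a median of -0.0255, by the authors' deposited table. PPIA had -0.626 and TUBB -0.503 for tRNA-Glu according to the authors' deposited table. For tRNA-Arg 0 were in the lowest and 1 in the highest 5%, TUBA1B at 0.217, and LDHA had -0.122, per the authors' deposited table. In the tRNA-Glu line 19.0% of the reference list, 31.8% of the decay list, 19.4% of the upstream list and 41.3% of the members were in either 5% group by the authors' deposited table, where all genes had 10.0%. In the tRNA-Arg line these shares were 4.76%, 18.2%, 12.9% and 30.4% according to the authors' deposited table. Genes under a current symbol without a placeholder name had 13.2% for tRNA-Glu and 12.5% for tRNA-Arg per the authors' deposited table. The lists differ in size, and whether they differ from each other was not tested.

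**Figure D5:**
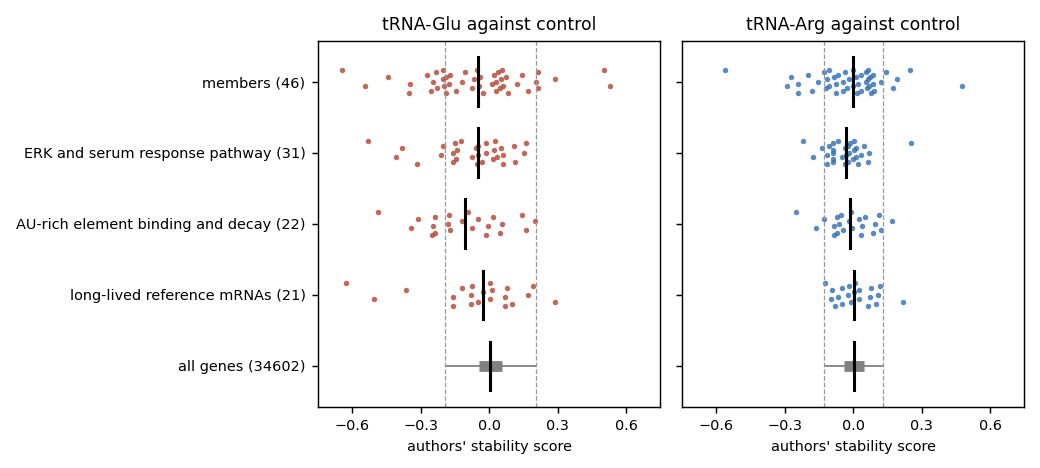
Stability scores of the members and of 3 other lists for tRNA-Glu (left) and tRNA-Arg (right) against control, on the unstated scale of the authors' deposited table. Points are genes, black bars medians, and the bottom row gives the range between the quartiles (thick line) and range between the 5% limits (thin line, dashed limits) of all 34602 genes; of the members 19 (left) and 14 (right) lie outside the dashed limits, with medians of -0.0493 and -0.00109.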

How the data were processed

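RNA of 12 samples of MDA-MB-231 cells, in 6 groups of 2 by line and time, was measured on BeadChips. The authors' deposited table holds a stability score per gene and line, of unstated formula and log base. The authors' processed values are intensity values on a linear scale, with medians from 56.2 to 56.3 over the 12 arrays. Per the submitters' processing notes lumi was used; no source read here gives its version or any other step. The non-normalized intensities were not used.

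No source used here pairs probes with genes, so the planned limma tests on the members were not run, nor was the content of glutamate and arginine, for want of protein sequences. Members were taken by exact symbol. The members and lists were chosen with earlier results of these data known, and the families, the motifs beyond the CArG box, cyclic AMP response element and AP-1 site, and the 5% limits after the scores were seen. The text names all members and, of the 3 other lists, the 2 largest scores in size for each line; genes named from the families were chosen after their values were seen. Percentiles are over all 34602 genes. Intensities were taken to log2 for the spread of replicates; with 2 arrays per group their number limits the precision. Motif search and counts were tested on simulated data. Tools were Python 3.11.15, pandas 2.3.3, numpy 2.4.6 and matplotlib 3.10.9.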

Additional observations from a re-analysis of the deposited data

How the results depend on the processing

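The signed medians kept their sign under every alternative run, but only the mean could have changed it. For tRNA-Glu the mean was -0.0585, and the median was -0.0448 without SGK1, without PIM1 or with AXUD1 counted. For tRNA-Arg the mean was -0.0204 and the median -0.000190 under each of those 3 changes, SOX4 being the member left out as largest. A single gene left out or added moves the median only to a neighbouring member's score, and those were below 0 in both lines. The tRNA-Arg median of -0.00109 lay near 0, beside a median difference of 0.0681 between 2 listings of a gene. The counts in the extremes for tRNA-Glu moved. With limits from genes under a current symbol without placeholder names the lowest 5% held 7 members and the highest 3, and with limits of 2.5%, which can only lower a count and hold 2.5% of all genes, they held 5 and 3. For tRNA-Arg the same changes gave 8 or 7 in the lowest and 5 or 4 in the highest. The alternatives on limits, and the one with AXUD1, were chosen after seeing the data. For the members, leaving out arrays, other normalizations and other filters were not run, since no score per array is given. No paired analysis was possible because the table holds 1 score per gene and line, and no replicate carries a member's value. The limits are the unstated scale, the absence of replicate scores and the weak repeat between 2 listings of a gene. Whether a member was still above array background at 9 h was not tested.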

Other observations

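Within several gene families the authors' deposited table places relatives in opposite 5% groups for tRNA-Glu: JUN (0.528) and FOSL1 (-0.445), ZFP36 (0.288) and ZFP36L2 (-0.543), and DUSP1 (0.214) and DUSP6 (-0.347). DUSP1 lay just beyond the upper limit of 0.203. It was short of the limit of 0.216 from genes under a current symbol without a placeholder name. These pairs were picked after their values were seen, and no difference within them was tested.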
